A study of Mus musculus with 14 samples.

Results

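The genes described here encode the SUMO machinery and the cofactors through which nuclear receptors act on transcription. A gene was included where a probe set of the array was annotated with exactly 1 gene symbol and that symbol was on a list of 32 genes, and a gene with several such probe sets was read from the brightest of them, by its mean of all 14 arrays. Of the 32 listed genes 30 were measured in this way among 19237 genes in all, namely 16 of 17 genes of the SUMO machinery and 14 of 15 cofactor genes. Uba2 and Ncor1 had no probe set of their own name and were not analysed here.

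Liver RNA was profiled on Affymetrix whole-transcript arrays in 7 LRH-1 K289R mice and 7 LRH-1 WT mice, with 1 array for each mouse. LRH-1 is the nuclear receptor encoded by Nr5a2, and in K289R mice a lysine of this receptor to which SUMO is attached is replaced by arginine. Mice of both genotypes were 17 to 19 weeks old, had free access to food and were killed at 7 am. Sex, strain background, litter, and the way the allele was made are not stated in the labels, and the labels call the arrays of a genotype biological replicates. The comparison asks how the members differ in livers whose LRH-1 lacks this acceptor site.

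SUMO proteins are small relatives of ubiquitin that are joined to lysines of other proteins. A processed SUMO protein is activated by the dimer of SAE1 and UBA2, passed to a conjugating enzyme, and placed on a target with the help of ligases such as the PIAS proteins and RANBP2, and SENP proteases remove it again. On many transcription factors the modification favours the recruitment of corepressors, and in mouse liver SUMO-modified LRH-1 is known to bind the corepressor PROX1. Coactivators such as the NCOA proteins and PGC-1 proteins, and corepressor complexes built on NCOR1, HDAC3, GPS2, TBL1X and TBL1XR1, act in opposite directions on receptor target genes.

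The promoters of 3 SUMO genes that were lower in K289R livers are shown because they carry, or lack, the sequence that LRH-1 is known to bind. The windows span 250 bases before to 50 bases after an annotated start and come from RefSeq, build GRCm38.p6. Each is written 5′ to 3′ on the strand of its gene, and capitals mark matches to AAGGTCA, the core of the LRH-1 site, its longer form CAAGGTCA, or the ETS factor site CCGGAAG, on either strand. For a gene with several windows, the window shown was picked because it held CAAGGTCA.
Sumo2, chr11:115536181-115536480, minus strand: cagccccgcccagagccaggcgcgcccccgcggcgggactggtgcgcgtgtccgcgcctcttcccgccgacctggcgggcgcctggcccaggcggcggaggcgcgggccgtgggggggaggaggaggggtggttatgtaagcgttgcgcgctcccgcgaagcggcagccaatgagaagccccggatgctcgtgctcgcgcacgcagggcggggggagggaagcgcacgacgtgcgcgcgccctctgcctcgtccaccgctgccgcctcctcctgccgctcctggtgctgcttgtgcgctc
Senp5, chr16:32003238-32003537, minus strand: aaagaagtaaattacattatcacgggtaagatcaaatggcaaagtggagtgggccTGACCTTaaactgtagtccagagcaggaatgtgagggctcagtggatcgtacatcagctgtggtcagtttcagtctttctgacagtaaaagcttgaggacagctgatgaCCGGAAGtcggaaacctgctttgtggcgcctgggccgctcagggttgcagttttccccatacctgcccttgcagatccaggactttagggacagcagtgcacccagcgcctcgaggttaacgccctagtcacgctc
Rnf4, chr5:34336682-34336981, plus strand: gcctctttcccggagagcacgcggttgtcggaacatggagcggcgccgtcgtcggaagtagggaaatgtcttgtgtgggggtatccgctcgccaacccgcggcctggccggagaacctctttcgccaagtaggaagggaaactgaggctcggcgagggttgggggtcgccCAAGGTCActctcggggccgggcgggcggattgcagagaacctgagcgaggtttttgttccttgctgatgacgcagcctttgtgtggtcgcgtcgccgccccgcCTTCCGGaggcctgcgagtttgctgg

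Of the 32 listed genes, 25 had a promoter window in the RefSeq table. The longer site CAAGGTCA occurred in the promoter of Rnf4 alone among these 25 genes, against 1.76% of 27025 genes in the whole table. The core AAGGTCA, which lies inside the longer site, occurred in 3 of the 25 genes, Senp1, Senp5 and Rnf4, against 5.38% of all genes. The ETS site CCGGAAG occurred in 7 of the 25 genes, Uba2, Senp1, Senp5, Senp7, Rnf4, Ncor1 and Gps2, against 9.93% of all genes. A gene with several annotated starts was counted once if any of its windows held the letters. These matches describe sequence and do not show that a protein is bound. Among the 3 genes with the core, Senp5 and Rnf4 were lower in K289R livers, while Senp1 differed by 0.00 ± 0.08. A link between sites and changes was not tested.

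All values below are log2(intensity + 1), with intensity on the linear scale deposited by the authors, so the change of dim genes is understated. Differences are K289R minus WT with the standard error (SE) of limma's moderated linear model, tests are 2-sided, and a gene is said to rise or fall only where its Benjamini-Hochberg adjusted p over all 19237 genes is under 0.05. Over all genes 8.37% rose and 10.8% fell in K289R livers. These were 1610 and 2068 genes on the deposited scale, and 900 and 2044 when each array was centred on its median. Nr5a2 itself had a mean of 8.76 ± 0.22 in K289R livers and 8.77 ± 0.09 in WT livers (SD, n = 7 each; exact permutation p = 0.981), a level that does not check the genotype because the substitution changes 1 residue. Its difference was 0.12 among replicates 1 to 4 and -0.17 among replicates 5 to 7. Of 9 measured hepatocyte markers, all lay above the level of unexpressed genes, taken as the 95th percentile of olfactory receptor genes (5.1). None passed the test on the deposited scale. With quantile normalization 2 of them fell and none rose, where 2165 of all 19237 genes fell and 2072 rose. Their K289R means ran from 10.78 for Hnf4a to 13.07 for Alb. Whether such bright signals still follow the RNA level was not tested, so these markers cannot decide whether hepatocyte content differed. The arrays differed in spread, with interquartile ranges of 2.28 to 2.7 in K289R livers and 2.36 to 2.83 in WT livers, and K289R replicates 6 and 7 had the lowest. Earlier results of these data had shown that replicates 5 to 7 stand apart from replicates 1 to 4 in both genotypes, a division the labels do not name, so values are also given within each set and with the 4 sets as random blocks.

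Genes of the SUMO machinery were lower in K289R livers wherever they passed the test. Of the 16 measured genes 7 fell, none rose and 9 did not pass. Those that fell were the modifier gene Sumo2, the ligase genes Ranbp2 and Pias2, the protease genes Senp5, Senp6 and Senp7, and Rnf4, which encodes a ubiquitin ligase that reads SUMO chains. At an unadjusted p under 0.05 the count of higher genes was also 0 and that of lower genes 7. At that level 2984 of all 19237 genes were higher and 2849 lower. The share of 43.8% that fell stands beside 10.8% of all genes. The 12588 genes with a mean above 5 were also fitted alone, with p adjusted over these genes only. In that fit 16.8% of them fell and 13.9% rose, and 7 of 15 SUMO genes fell. The median difference of the 16 genes was -0.17, against 0.05 over all genes. With sets as random blocks 5 of the 16 fell and none rose, where 7.3% of all genes fell and 4.01% rose. When each array was scaled to the same median and interquartile range 5 fell, where 1899 of all 19237 genes fell and 1653 rose.

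The modifier genes differed from each other. Sumo2 lay between 8.98 and 9.48 with a median of 9.26 in K289R livers, and between 9.99 and 10.26 with a median of 10.11 in WT livers. Each of the 7 K289R arrays was below each WT array. Sumo2 fell by 0.87 ± 0.07 (SE; adjusted p = 1.34e-08), to 0.547 of the WT level, and the fall was 0.81 among replicates 1 to 4 and 0.95 among replicates 5 to 7. Sumo3, whose mature protein is nearly identical to that of Sumo2, ranged from 8.17 to 8.70 with a median of 8.29 in K289R livers and from 8.39 to 8.75 with a median of 8.44 in WT livers. The genotypes overlapped, and the difference of -0.16 ± 0.08 did not pass (adjusted p = 0.211, 95% confidence interval -0.33 to 0.02), although 5 of the 7 K289R arrays lay below each WT array. It passed when K289R replicate 3 was left out (adjusted p = 0.0493). The offset between the Sumo2 and Sumo3 probe sets on the same array was 0.60 to 1.31 (median 0.92) in K289R livers and 1.35 to 1.83 (median 1.66) in WT livers. The size of an offset depends on the probes and does not rank the genes, and its change between genotypes, with no overlap, shows unequal change of the probe sets, not that Sumo3 stayed the same.

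Sumo2 was measured by several probe sets, and which transcript they report is uncertain. The annotation gave Sumo2 as the single symbol of 4 probe sets, and a 5th was annotated with Sumo2 together with 2 microRNA genes and was outside the inclusion rule. Identifiers of this array type run along the chromosomes, and in a sample of 2128 probe sets 97.2% had neighbours in identifier order mainly from the chromosome of their own gene. Among the 35 single-symbol probe sets of the members this held for 31, and the 4 exceptions were those of Sumo2. Sumo2 is on chromosome 11 in RefSeq, while the neighbours of these 4 probe sets were mainly genes of chromosomes 16, 1, 2 and 5, with the brightest among genes of chromosome 16. The probe set with several symbols had neighbours on chromosome 11 in 20 of 20 cases.

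All 5 Sumo2 probe sets gave nearly the same values. The probe set with several symbols had a median of 9.34 in K289R livers and 10.1 in WT livers with no overlap, and the differences of the 5 ran from -0.88 to -0.81. When all probe sets were tested together its adjusted p was 6.61e-07. On no array did the 5 values spread by more than 0.28. Whether these probe sets share probes, and whether processed copies of Sumo2 contribute signal, was not tested, so the 5 are not separate support for the fall.

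**Figure D1:**
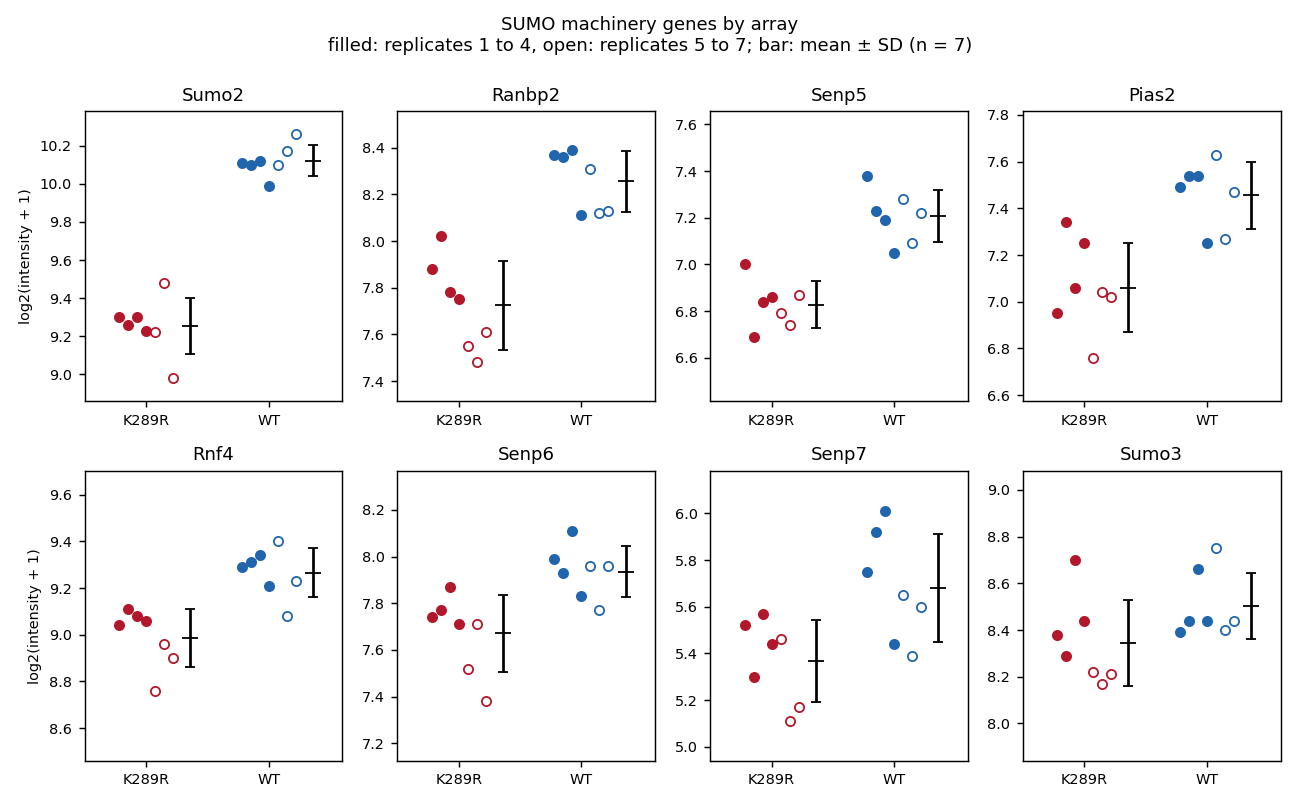
Each panel plots 1 SUMO machinery gene, the 7 that fell and Sumo3, with log2(intensity + 1) of each array on the vertical axis (the axes differ between panels), K289R left of WT; filled points are replicates 1 to 4, open points replicates 5 to 7, and the bar is the mean ± SD of 7 arrays. Sumo2, Ranbp2 and Senp5 show no overlap between genotypes, while Sumo3 overlaps and did not pass the test.

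Among enzymes that attach SUMO, 1 of the 4 PIAS genes and Ranbp2 fell. Ranbp2, which encodes a nuclear pore protein with SUMO ligase activity, ranged from 7.48 to 8.02 with a median of 7.75 in K289R livers and from 8.11 to 8.39 with a median of 8.31 in WT livers. The genotypes did not overlap, and Ranbp2 fell by 0.53 ± 0.08 (adjusted p = 0.000115), with a fall of 0.45 in replicates 1 to 4 and 0.64 in replicates 5 to 7. Pias2 ranged from 6.76 to 7.34 with a median of 7.04 in K289R livers and from 7.25 to 7.63 with a median of 7.49 in WT livers. It fell by 0.40 ± 0.09 (adjusted p = 0.0025), and 6 of 7 K289R arrays lay below each WT array, the exception being replicate 2. Among replicates 1 to 4 alone the difference of Pias2 was -0.31 with an adjusted p of 0.0584.

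The other attachment genes did not pass. Sae1, a subunit of the activating enzyme, differed by -0.13 ± 0.07 (adjusted p = 0.259) and overlapped between genotypes. Pias1, Pias3 and Pias4 differed by 0.04 ± 0.09, -0.08 ± 0.10 and 0.01 ± 0.06, with 95% intervals of -0.15 to 0.23, -0.29 to 0.14 and -0.13 to 0.14. Each of these intervals leaves out the estimate of -0.40 for Pias2, though that of Pias3 overlaps the Pias2 interval of -0.58 to -0.22.

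Of the 7 protease genes 3 fell. Senp5, whose product acts mainly on SUMO2 and SUMO3 and is found in nucleoli, ranged from 6.69 to 7.00 with a median of 6.84 in K289R livers and from 7.05 to 7.38 with a median of 7.22 in WT livers. The genotypes did not overlap and Senp5 fell by 0.38 ± 0.07 (adjusted p = 0.000418), though the adjusted p was 0.0523 among replicates 5 to 7 alone, where the difference was -0.40. Senp6 and Senp7, which encode the proteases that trim SUMO chains, both fell by less than Sumo2. Senp6 ranged from 7.38 to 7.87 with a median of 7.71 in K289R livers and from 7.77 to 8.11 with a median of 7.96 in WT livers, a difference of -0.26 ± 0.08 (adjusted p = 0.0196). Senp7 ranged from 5.11 to 5.57 with a median of 5.44 in K289R livers and from 5.39 to 6.01 with a median of 5.65 in WT livers, a difference of -0.31 ± 0.10 (adjusted p = 0.0372). Arrays of both genotypes overlapped for both genes. Senp6 lost its call with sets as random blocks (adjusted p = 0.0741) and without K289R replicates 6 and 7 (adjusted p = 0.0508), and Senp7 lost it under both (0.132 and 0.163), with quantile normalization (0.0523) and whenever WT replicate 1, 2, 3 or 5 or K289R replicate 2, 6 or 7 was left out.

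The other protease genes showed no passing difference. Senp1 and Senp2, whose products act on all SUMO forms, and Senp3, a close relative of Senp5, differed by 0.00 ± 0.08, 0.06 ± 0.10 and 0.01 ± 0.07. Their intervals reached 0.27 at most, for Senp2, and -0.16 at least, for Senp1. Senp8, which despite its name cleaves the ubiquitin relative NEDD8, had means of 3.90 ± 0.19 in K289R livers and 4.08 ± 0.28 in WT livers (SD, n = 7 each). It was the 1 member of 30 that did not exceed the level of unexpressed genes, and its difference of -0.17 ± 0.11 did not pass (adjusted p = 0.32).

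Rnf4, whose promoter holds the longer LRH-1 sequence shown above, ranged from 8.76 to 9.11 with a median of 9.04 in K289R livers and from 9.08 to 9.40 with a median of 9.29 in WT livers. Its fall of 0.28 ± 0.07 (adjusted p = 0.00432) put 6 of 7 K289R arrays below each WT array. The call was lost when each array was scaled to the same median and interquartile range (adjusted p = 0.14), while Sumo2 (0.000277), Ranbp2 (4.36e-05), Senp5 (0.00019) and Pias2 (0.00176) kept theirs. In all, 3 members had K289R arrays wholly below the WT arrays and none had them wholly above, against 4.73% and 2.82% of all genes.

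Of a further list of 27 genes of the SUMO pathway 24 were measured, with a median difference of -0.07. On the deposited scale 5 (20.8%) rose and 6 (25%) fell, against 8.37% and 10.8% of all genes. In the fit of genes with a mean above 5 alone these counts were the same, where 13.9% and 16.8% of genes did so. With median centring 1 rose and 6 fell, where 900 and 2044 of all 19237 genes did. With sets as random blocks 1 rose and 3 fell, where 4.01% and 7.3% of all genes did. Xpo1, which encodes the nuclear export receptor that works with the RANBP2 complex, had a mean of 6.29 ± 0.35 in K289R livers and 7.14 ± 0.24 in WT livers and fell by 0.85 ± 0.14 (adjusted p = 0.000129). The ligase gene Topors fell by 0.45 ± 0.08, Usp25, which encodes a ubiquitin protease that binds SUMO, fell by 0.32 ± 0.07, and Desi2, a relative of a SUMO protease gene, fell by 0.36 ± 0.11. Among the risers were Mul1, a mitochondrial ligase gene (0.41 ± 0.08), and Trim28, the gene of a corepressor that also acts as a SUMO ligase (0.29 ± 0.08). Desi2 lost its call with sets as random blocks (adjusted p = 0.114) and without WT replicate 2, 3 or 5 or K289R replicate 3 or 5, and Trim28 lost it with random blocks (0.0643).

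The NEDD8 pathway, the relative of SUMO on which SENP8 acts, is described beside it. Of 21 listed genes 19 were measured, 11 fell and none rose. At an unadjusted p under 0.05, 12 were lower and none higher, where 2849 of all 19237 genes were lower and 2984 higher. The share of 57.9% that fell stands beside 10.8% of all genes. In the fit of the brighter genes alone 16.8% fell, and 11 of the 19 NEDD8 pathway genes did. The median difference was -0.30. Uchl3, whose product processes NEDD8 precursors, had a mean of 6.27 ± 0.25 in K289R livers and 7.47 ± 0.21 in WT livers and fell by 1.19 ± 0.11 (adjusted p = 2.09e-07). Nae1, a subunit of the NEDD8 activating enzyme, fell by 0.92 ± 0.09, Nedd8 by 0.45 ± 0.08, and Cops5, the subunit that removes NEDD8 from cullins, by 0.68 ± 0.12. Cul3 fell by 0.40 ± 0.07 and Dcun1d1, a gene for a cofactor of NEDD8 transfer, by 0.44 ± 0.09. With sets as random blocks 8 of the 19 genes passed, all of them lower, where 7.3% of all genes fell.

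On the brightest probe sets, the cofactor genes that passed the test were all higher in K289R livers. Of the 14 measured genes 3 rose, none fell and 11 did not pass. The share of 21.4% that rose stands beside 8.37% of all genes. In the fit of genes whose mean exceeded 5 alone, 13.9% rose, and 3 of the 14 cofactor genes did. The median difference was 0.09, against 0.05 over all genes. At an unadjusted p under 0.05 there were 4 higher genes and no lower one, where 2984 of all 19237 genes were higher and 2849 lower. With sets as random blocks 1 gene, Prox1, passed, where 4.01% of all genes rose. The single direction did not hold when the probe sets of a gene were averaged. In that fit 2 cofactor genes rose and 1, Ppargc1a, fell, where 1576 and 2066 of all 19237 genes did.

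Prox1, the gene of the corepressor known to bind SUMO-modified LRH-1, ranged from 8.89 to 9.47 with a median of 9.08 in K289R livers and from 8.46 to 8.96 with a median of 8.64 in WT livers. The genotypes overlapped, with 5 of 7 K289R arrays above each WT array. Prox1 rose by 0.43 ± 0.10 (adjusted p = 0.00319), a fold of 1.34, and its adjusted p was 0.0311 with sets as random blocks. Replicates 1 to 4 alone gave a difference of 0.50 (adjusted p = 0.0148), and replicates 5 to 7 alone gave 0.33 (adjusted p = 0.132). Prox1 also marks lymphatic endothelium, and none of 5 measured markers of those vessels passed, with summed intensities of 271 to 407 in K289R livers and 331 to 375 in WT livers. Mmrn1 and Sema3d of that list did not exceed the level of unexpressed genes. Flt4 and Lyve1 also belong to the list of sinusoidal endothelial markers. The list therefore cannot decide whether lymphatic cells differed in number. In bulk liver a change in the number of cells of a type and a change in RNA per cell cannot be told apart.

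**Figure D2:**
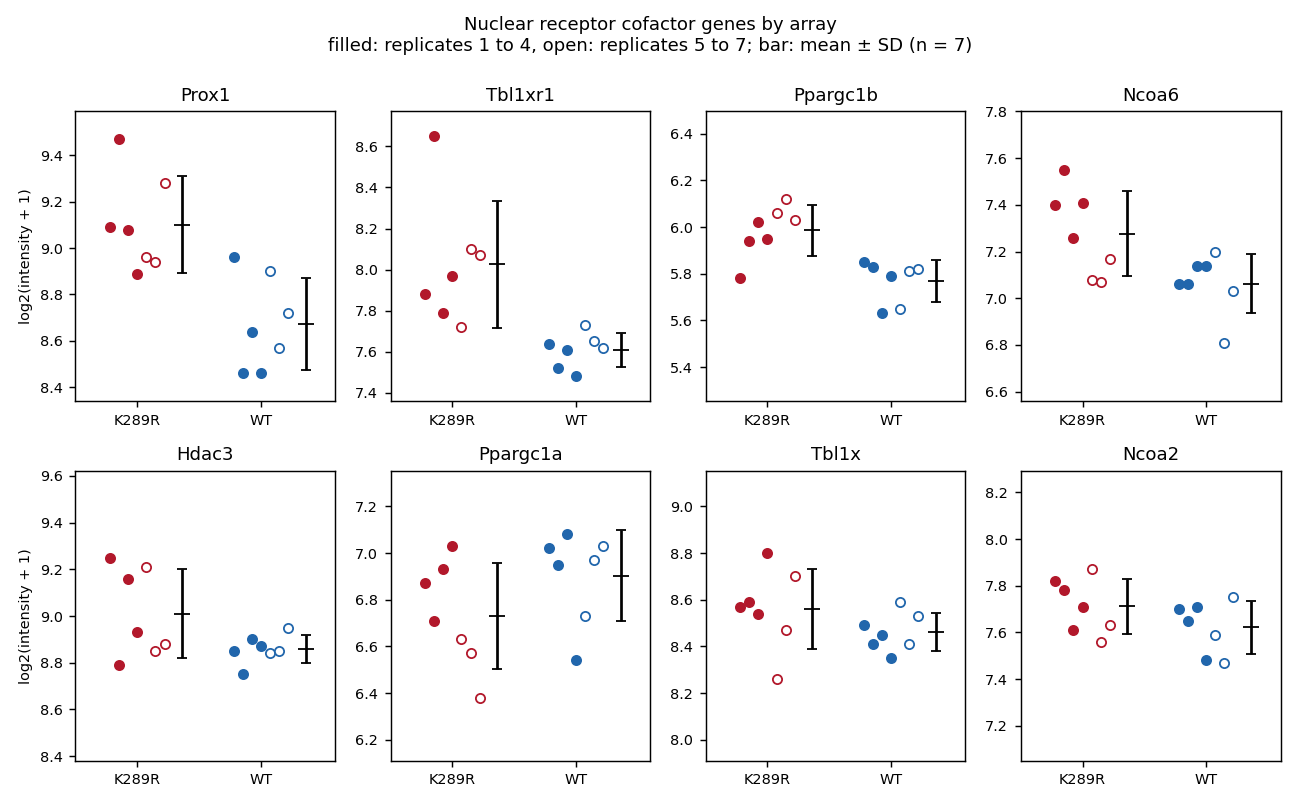
The 8 cofactor genes with the smallest p are plotted, 1 per panel, with log2(intensity + 1) of each array on the vertical axis, K289R left of WT, filled points for replicates 1 to 4, open points for replicates 5 to 7, and the mean ± SD of 7 arrays as a bar. Tbl1xr1 in K289R replicate 2, at 8.65, lies apart from the other arrays.

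In the corepressor complexes Tbl1xr1 rose on the probe set chosen by brightness. This gene encodes a subunit that exchanges corepressors for coactivators. It ranged from 7.72 to 8.65 with a median of 7.97 in K289R livers and from 7.48 to 7.73 with a median of 7.62 in WT livers, a rise of 0.42 ± 0.11 (adjusted p = 0.00757), and 6 of 7 K289R arrays lay above each WT array. Its other probe set ranged from 6.76 to 7.58 in K289R livers and from 6.92 to 7.43 in WT livers, with a difference of -0.13 ± 0.12 (adjusted p = 0.507 over all probe sets). The probe sets of this gene therefore did not give 1 direction, and the call was lost when they were averaged (difference 0.14, adjusted p = 0.347) and with sets as random blocks (adjusted p = 0.0574).

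The other subunits did not pass. Hdac3, the deacetylase of the complex, ranged from 8.79 to 9.25 in K289R livers and from 8.75 to 8.95 in WT livers, a difference of 0.15 ± 0.07 (adjusted p = 0.181). Tbl1x, the close relative of Tbl1xr1, differed by 0.10 ± 0.07, and Gps2 by 0.04 ± 0.06. Nrip1, which encodes the corepressor RIP140, differed by -0.09 ± 0.09, and Sin3a, the scaffold gene of another deacetylase complex, by 0.02 ± 0.08. The arrays of both genotypes overlapped for each of these 5 genes.

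Of the coactivator genes Ppargc1b, the gene of PGC-1β, was the 1 that rose. It ranged from 5.78 to 6.12 with a median of 6.02 in K289R livers and from 5.63 to 5.85 with a median of 5.81 in WT livers, and 6 of 7 K289R arrays lay above each WT array. Its rise of 0.22 ± 0.07 (adjusted p = 0.0338) was the smallest of the 10 members that passed. It lost the call with median centring, with sets as random blocks (adjusted p = 0.12), without K289R replicates 6 and 7 (0.104), and whenever WT replicate 3 or 5 or K289R replicate 3, 5, 6 or 7 was left out. Ppargc1a, which encodes PGC-1α, a coactivator of gluconeogenic and mitochondrial genes, ranged from 6.38 to 7.03 with a median of 6.71 in K289R livers and from 6.54 to 7.08 with a median of 6.97 in WT livers on its brighter probe set. That difference of -0.17 ± 0.10 did not pass (adjusted p = 0.273).

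The dimmer probe set of Ppargc1a was lower in K289R livers. It ranged from 4.15 to 4.89 with a median of 4.52 in K289R livers and from 5.15 to 5.70 with a median of 5.50 in WT livers. The genotypes did not overlap, and the difference was -0.96 ± 0.13 (adjusted p = 9.75e-05 over all probe sets). It was -0.77 among replicates 1 to 4 and -1.22 among replicates 5 to 7, and it passed with sets as random blocks (adjusted p = 0.00046). The mean of both probe sets differed by -0.57 and passed (adjusted p = 0.000999). The K289R mean of 4.47 was below the level of unexpressed genes and the WT mean of 5.43 was just above it, so neither the difference of this probe set nor that of the mean can be read as the size of a change in transcript level. Identifiers of both probe sets lay among genes of chromosome 5, where Ppargc1a is. Which part of the transcript each one covers was not given in the sources used here.

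**Figure D3:**
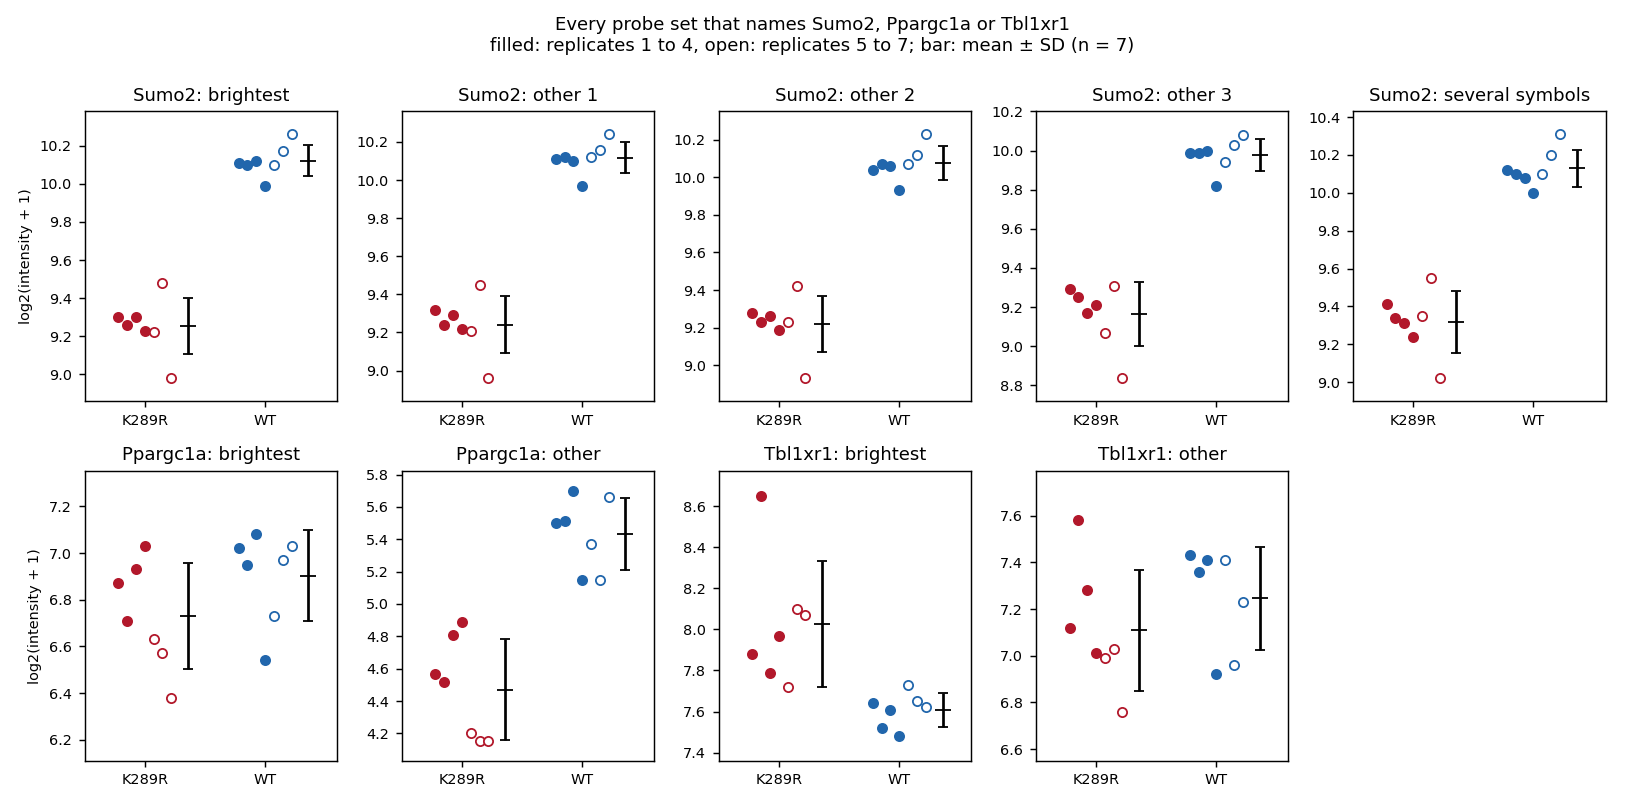
Every probe set annotated with Sumo2, Ppargc1a or Tbl1xr1 is plotted in a panel of its own, with log2(intensity + 1) of each array on the vertical axis, K289R left of WT, filled points for replicates 1 to 4, open points for replicates 5 to 7, and the mean ± SD of 7 arrays as a bar. The 5 Sumo2 panels look alike, whereas the panels of Ppargc1a differ (-0.17 and -0.96), as do those of Tbl1xr1 (0.42 and -0.13).

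The steroid receptor coactivator genes showed small differences. Ncoa1, Ncoa2 and Ncoa3, whose products bind ligand-occupied receptors directly, differed by 0.07 ± 0.07, 0.09 ± 0.07 and 0.03 ± 0.08, and all 3 overlapped between genotypes. Their 95% intervals ended at 0.21, 0.23 and 0.20, so a rise the size of that of Prox1 lies outside them. Ncoa6, the gene of a coactivator that belongs to a histone methyltransferase complex, ranged from 7.07 to 7.55 in K289R livers and from 6.81 to 7.20 in WT livers. Its difference of 0.21 ± 0.08 did not pass (adjusted p = 0.0842), but it did with quantile normalization (0.00574), without K289R replicates 6 and 7 (0.0288), without K289R replicate 6 alone and among replicates 1 to 4 (0.021). Med1, the Mediator subunit that contacts receptors, differed by 0.09 ± 0.10 (adjusted p = 0.592).

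Of 55 further cofactor genes 51 were measured, with a median difference of 0.07. On the deposited scale 9 (17.6%) rose and 7 (13.7%) fell, against 8.37% and 10.8% of all genes. In the fit of genes with a mean above 5 alone, 11 of 49 rose and 8 fell, where 13.9% and 16.8% of genes did. With median centring 2 rose and 7 fell, where 900 and 2044 of all 19237 genes did. With sets as random blocks 1 rose and 4 fell, where 4.01% and 7.3% of all genes did. Hdac1, a class I deacetylase gene, had a mean of 7.18 ± 0.19 in K289R livers and 8.02 ± 0.12 in WT livers and fell by 0.83 ± 0.08 (adjusted p = 4.92e-07) with no overlap. Cnot1, the scaffold gene of the deadenylase complex, fell by 0.45 ± 0.05, and Smarcc1, a chromatin remodelling subunit gene, fell by 0.36 ± 0.06, both with no overlap. Akirin2, the gene of a nuclear adaptor protein, fell by 0.37 ± 0.06, and the corepressor gene Ctbp1 rose by 0.39 ± 0.06, both with no overlap. Nr0b2, which encodes SHP, a corepressor of LRH-1, ranged from 8.86 to 10.34 in K289R livers and from 8.74 to 9.17 in WT livers. It rose by 0.61 ± 0.16 (adjusted p = 0.00861), and lost its call with sets as random blocks (0.0625).

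**Figure D4:**
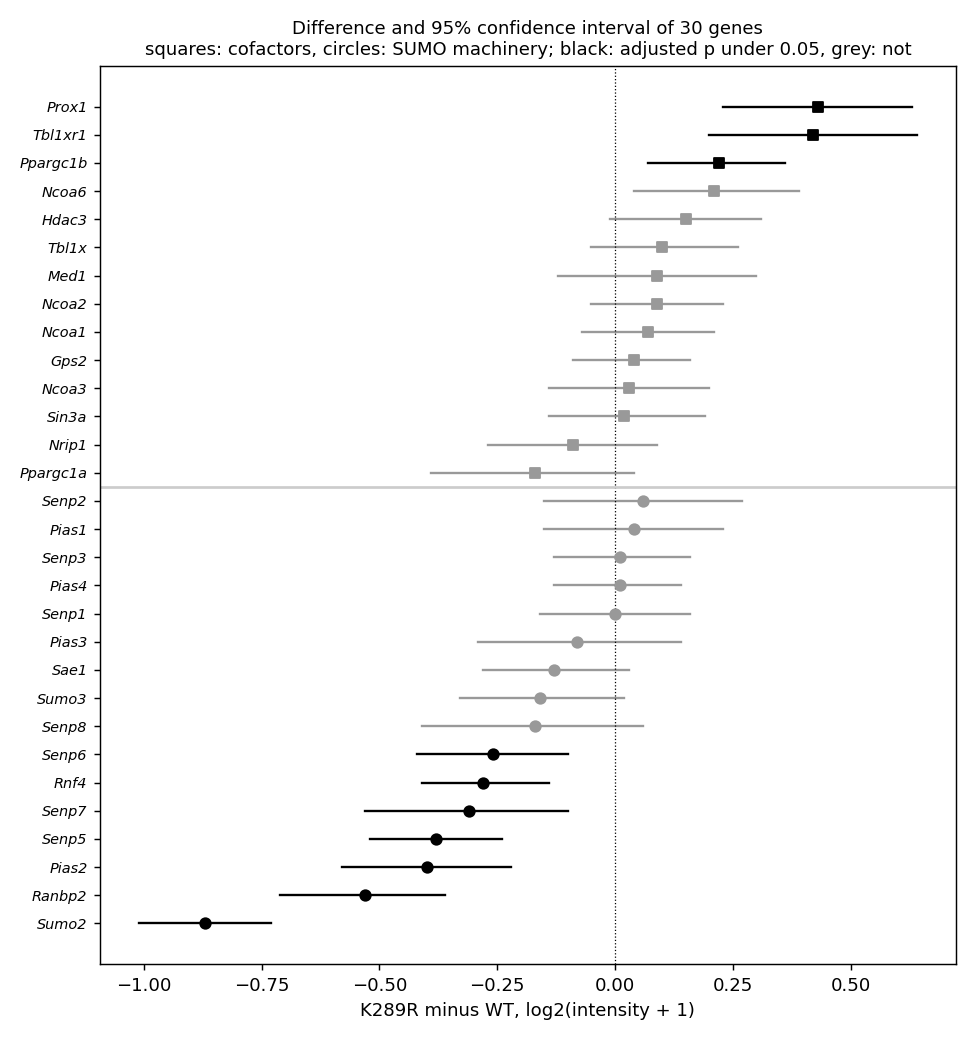
The horizontal axis gives the difference K289R minus WT in log2(intensity + 1) and the lines are 95% confidence intervals, with cofactors as squares above and SUMO machinery as circles below, black where the adjusted p was under 0.05. The 7 black circles lie left of 0 and the 3 black squares lie right of it.

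Within the sets of replicates the calls were fewer. Among replicates 1 to 4, 4 of the 16 SUMO genes fell and 3 of the 14 cofactor genes rose, where 7.16% of all genes fell and 6.92% rose. Among replicates 5 to 7, 3 SUMO genes fell and no cofactor passed, where 7.27% of all genes fell and 1.89% rose. The median difference of the SUMO genes was -0.14 in replicates 1 to 4 and -0.26 in replicates 5 to 7, and that of the cofactors was 0.12 and 0.02. In 13 of 16 SUMO genes, 13 of 14 cofactors and 19 of 19 NEDD8 pathway genes the difference was more negative in replicates 5 to 7, as it was in 9024 of all 19237 genes and in 7338 of the 12588 genes whose mean exceeded 5. The median over all genes was 0.01 in replicates 1 to 4 and 0.07 in replicates 5 to 7.

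The interaction of genotype and set passed for 0.114% of all genes and for 0 of the 30 members in limma, whose lowest adjusted p was 0.522. In the same fit 3 members, Senp2, Senp3 and Ppargc1a, had an unadjusted p under 0.05. The share of all genes with such an unadjusted p is not given here, so these 3 are not read as a result. For Senp2 the difference was 0.22 in replicates 1 to 4 and -0.15 in replicates 5 to 7. In K289R livers replicates 6 and 7 also had the narrowest range of values, and its part in these set differences was not tested.

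**Figure D5:**
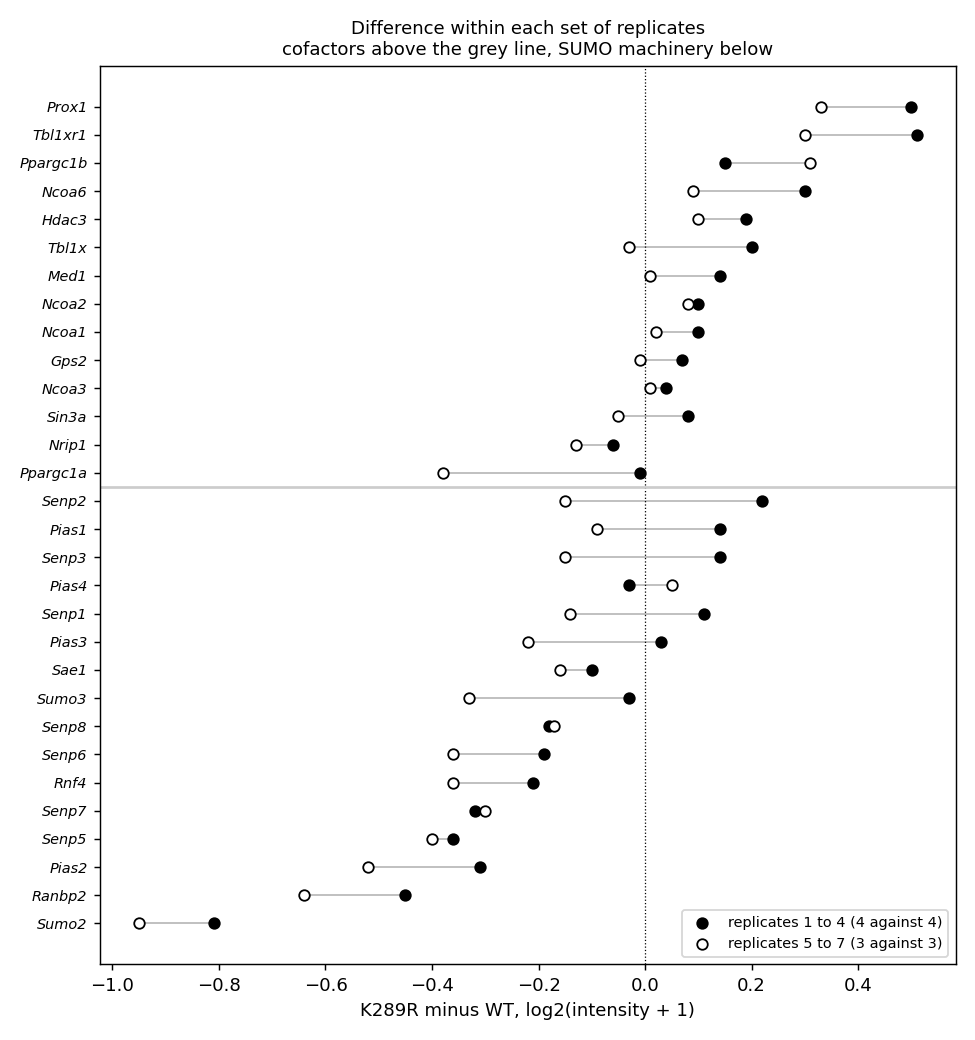
The horizontal axis gives the difference K289R minus WT in log2(intensity + 1) for each member, filled for replicates 1 to 4 (4 arrays against 4) and open for replicates 5 to 7 (3 against 3). Open points lie left of filled ones for 13 of 16 SUMO genes and 13 of 14 cofactors, and Sumo2 (-0.81 and -0.95) and Ranbp2 (-0.45 and -0.64) stay left of 0 in both sets.

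Markers of other liver cells moved with genotype in part, where 8.37% of all genes rose and 10.8% fell. Of 12 Kupffer cell markers 4 fell and 1 rose, with summed intensities of 1749 to 3103 in K289R livers and 2451 to 2965 in WT livers. Of 12 sinusoidal endothelial markers 2 rose and 2 fell (2959 to 3801 in K289R livers and 3297 to 3724 in WT livers), and of 12 stellate cell markers 2 rose and 1 fell (2617 to 3053 in K289R livers and 2502 to 2852 in WT livers). Vsig4, C1qc, Folr2 and Adgre1 were the Kupffer markers that fell, and C1qa rose by 0.30 ± 0.10 (adjusted p = 0.0493). Adgre1 lost its call in 8 and C1qa in 12 of 14 fits that left out an array. With sets as random blocks 3 Kupffer markers fell and none rose, where 7.3% of all genes fell and 4.01% rose. In the same fit 1 endothelial marker rose and 2 fell, and 1 stellate cell marker fell and none rose. All markers of these 3 lists exceeded the level of unexpressed genes in at least 1 genotype. Cd4, of 9 T and NK cell markers, and Mpo, of 7 neutrophil markers, passed, both higher in K289R livers. Mpo lost its call with sets as random blocks (adjusted p = 0.161) and in 9 of 14 fits that left out an array. In all, 6 markers of the T and NK cell list, Cd3d and Cd3g among them, and 5 of the neutrophil list, S100a8 and Ly6g among them, did not exceed the level of unexpressed genes. The summed T and NK cell markers were 217 to 277 in K289R livers and 189 to 246 in WT livers, and those of neutrophils 148 to 167 in K289R livers and 131 to 169 in WT livers. No marker of cholangiocytes (7), B cells (5) or erythroid cells (3) passed. Only 4 of the cholangiocyte markers and 1 of the B cell markers exceeded the level of unexpressed genes, so these lists could show little. The summed levels of K289R and WT livers overlapped for each list, and their part in the differences of the members was not tested.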

How the data were processed

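The members and gene lists were chosen with earlier results of these data known. The authors deposited 1 linear intensity for each probe set and array; the submitters' processing notes name Affymetrix Expression Console, and its version, normalization and genome build are not given in the sources used here. Of 35556 probe sets, 21456 had 1 gene symbol in the platform annotation, 2376 had several (not used) and 11724 were unlisted; symbols were updated by Entrez identifier (21277 matched, 2 replaced). K289R and WT arrays were compared on log2(intensity + 1) of the deposited values with limma 3.58.1 in R 4.3.3, with genotype alone, an intensity trend and no filter. Arrays have no read depth, so their number limits precision, and p-values measure the spread between these arrays. On simulated data for K289R against WT over 19237 genes, 22% of genes changed by a fold of 1.2 were recovered, 92% at 1.5 and 100% at 2 or 3. In that simulation 3 unchanged genes were called, and the changed genes were all brighter than the median. Far fewer genes were changed in it than the 3678 called here. Its values were drawn independently from normal distributions, with no difference between sets of replicates, so these rates may not hold for the real arrays. The rule for values named passing members, the 4 smallest p among the rest of each list, Sumo3, Ppargc1a, Ppargc1b, Nr0b2, and up to 6 passing genes of every other list; other members were named after their values were seen. Alternatives were pseudocounts of 0 and 16, quantile, median and interquartile scaling, blocks, weights, filters, probe set averaging, priors, a per-gene Welch test, thresholds and leaving out each array. Testing every probe set, and the shares among genes with a mean above 5, were added after the data were seen.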

Additional observations from a re-analysis of the deposited data

Results flagged for a closer look

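In 5 of 60 combinations of member and genotype, 1 array lay apart from the other 6 by more than Dixon's 95% critical value for groups of 7, where chance gives about 1 in 20. Tbl1xr1 was 8.65 in K289R replicate 2, against 7.72 to 8.10 in the other K289R arrays. Senp1 was 6.47 in K289R replicate 2, against 5.94 to 6.16. Nrip1 was 6.32 in K289R replicate 6, against 6.67 to 6.89, and Gps2 was 7.34 in that array, against 7.49 to 7.60. Pias3 was 5.34 in WT replicate 4, against 5.79 to 6.09 in the other WT arrays.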

How the results depend on the processing

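Of the 10 members that passed, Sumo2 and Ranbp2 kept their call and direction under all 20 alternatives and all 14 fits that left out 1 array. The count of SUMO genes called, 7, was 4 among replicates 1 to 4 and 3 among replicates 5 to 7, and ran from 6 to 8 when 1 array was left out. The cofactor count, 3, was 1 with sets as random blocks and 0 among replicates 5 to 7, with 2 to 3 when 1 array was left out. With probe sets averaged the cofactor count was again 3, but 2 genes were higher and 1, Ppargc1a, was lower. With sets as random blocks, among replicates 5 to 7 and at an adjusted p of 0.01, 2176, 1762 and 2232 genes passed in all, against 3678, and leaving out 1 array gave 3082 to 3857. The count for the other SUMO pathway genes, 11, was 7 with median centring, 4 with random blocks, 6 among replicates 1 to 4, 2 among replicates 5 to 7, 4 at an adjusted p of 0.01, and 6 to 11 when 1 array was left out, with 7 without WT replicate 2 and 6 without K289R replicate 5. That for the other cofactors, 16, was 9, 5, 10, 9 and 6 in the same order of settings, and the 11 NEDD8 pathway genes became 7 among replicates 1 to 4. Median centring gave 14 and the common interquartile range 13 genes with a passing interaction, against 22. The cause of these changes was not tested, and fits within a set also had fewer arrays. Of the members that passed, Tbl1xr1 changed sign, to -0.13 on its other probe set, and members that did not pass, such as Senp2, changed sign between the sets of replicates. Same-numbered replicates did not deviate together (correlations of -0.298 to 0.562, 3 of 7 pairs above 0.1, and 2 of 7 closest to their own number). With the replicate number as a block 3838 genes passed in all, 7 SUMO genes and 2 cofactors, Ppargc1b losing its call (adjusted p = 0.0596).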
